A study of Rattus norvegicus with 17 samples.

Results

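Expression of 10 genes of glycolysis and lactate formation was followed in laser captured neurons of the rat spinal cord. The genes were Hk1, Pfkp, Aldoa, Tpi1, Gapdh, Pgk1, Eno1, Eno2, Ldha and Ldhb. They were taken as the probe sets for which the probe-to-gene table gives 1 symbol and that symbol is a member, which were 18 of the 31099 probe sets on the array and 10 of the 14218 genes named there by 1 symbol. Of the 18, 10 were bright enough to be tested and cover 9 of the genes, 2 were dim (1 of Hk1 and 1 of Pgk1), and 6 were control probe sets of the array (3 of Hk1 and 3 of Gapdh). Gapdh was measured under this rule by its control probe sets alone, and a probe set listed for both Gapdh and a Gapdh-like gene was not counted as a member.

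Glycolysis splits glucose into pyruvate in the cytosol and yields ATP and NADH, and lactate dehydrogenase converts pyruvate into lactate while restoring NAD. Neurons are known for a high oxidative metabolism and are thought to take up lactate from astrocytes, and growing axons need local ATP. Several enzymes exist as isozymes with a known tissue bias: Eno2 encodes the neuron-specific enolase and Eno1 the widespread one, while Ldha and Ldhb encode the M and H subunits of lactate dehydrogenase.

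The data were 17 arrays, each from 1000 retrogradely labelled spinal neurons cut by laser from 10 µm sections of unfixed cord, whose RNA went through 3 rounds of amplification. Regenerating neurons (7 arrays) and non-regenerating neurons (7 arrays) came from the same 7 rats: MOON265, MOON266, and the MM rats numbered MM11, MM13, MM14, MM16 and MM17. Traced neurons, whose axons had not been cut (3 arrays), came from 3 other rats, MM15, MM18 and MM19, and the label of MM15 marks it as a high yield replicate. Strain, age, sex and the time after injury are not given in the sources used here. Values are linear signals in arbitrary units. They may be compared between arrays for 1 probe set but not between probe sets. Log2 fold changes are differences of log2(signal + 16), with the standard error (SE) of limma, and a probe set was called at an adjusted p under 0.05.

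The arrays of non-regenerating MM17 and traced MM15 stood apart. Their Gapdh 3' signal was 10.0 and 11.7 times their 5' signal, against at least 20.7 times on the other 15 arrays, and the share of signal in the 100 brightest probe sets was 12.4% and 11.9%, with 3.85% to 7.31% elsewhere. Log2 fold changes of glycolytic and related genes that moved by over 1.5 times or turned sign without them are also given that way. Exceptions are members that stayed within 0.2 of 0, and cases where that value was not taken, such as Mpc1 in regenerating against traced samples. All 13 neuron markers chosen to check the label were bright enough to be tested, but so were all 9 astrocyte markers. The brightness filter kept 18625 of the 31099 probe sets, so being kept cannot check the label. Glial markers were also measured: the summed signal of 9 astrocyte markers was 14562 to 26268 in regenerating, 14191 to 27387 in non-regenerating and 14220 to 20577 in traced samples. In such pooled samples, fewer cells of a type and less RNA per cell cannot be told apart.

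Regenerating neurons were set against non-regenerating ones of the same animal to find genes associated with regeneration. None of the 10 tested member probe sets passed the adjusted threshold, where 0.0161% of all 18625 probe sets did. Ldha had the largest log2 fold change of the 9 genes, 0.47 (SE 0.16), and 6 of 7 animals had more of it in regenerating neurons. Aldoa and Eno1 followed with 0.27 (SE 0.12) and 0.26 (SE 0.14), also higher in 6 of 7 animals, and Eno2 was at -0.28 (SE 0.18), higher in 2 of 7. The share of all probe sets that were higher in at least 6 of 7 animals was 7.39%. The median over the 9 genes was 0.07, with 7 above 0 and 2 below, beside a median of 0.00 and 49.8% above 0 for all probe sets. An unadjusted p under 0.05 was reached by Ldha and Aldoa, and by 7.08% of all probe sets. Of the marker lists, all 6 tested Schwann cell and fibroblast markers of 8 listed were higher in regenerating neurons, with a summed signal of 4469.5 to 7911 in regenerating and 3706 to 5777 in non-regenerating samples. None of the 6 passed. Of 9 astrocyte markers, 8 were lower in regenerating neurons (median -0.14), and none passed. Of 13 neuron markers, 5 were higher and 8 lower in regenerating neurons (median -0.07), and none passed. Among those higher was Chat, a marker of motor neurons, in 7 of 7 animals at 1.15 (adjusted p = 0.52 by limma, SE 0.26). The share of all probe sets given above, 7.39%, is for at least 6 of 7 animals. The part of these markers in the values of the glycolytic genes was not tested.

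**Figure D1:**
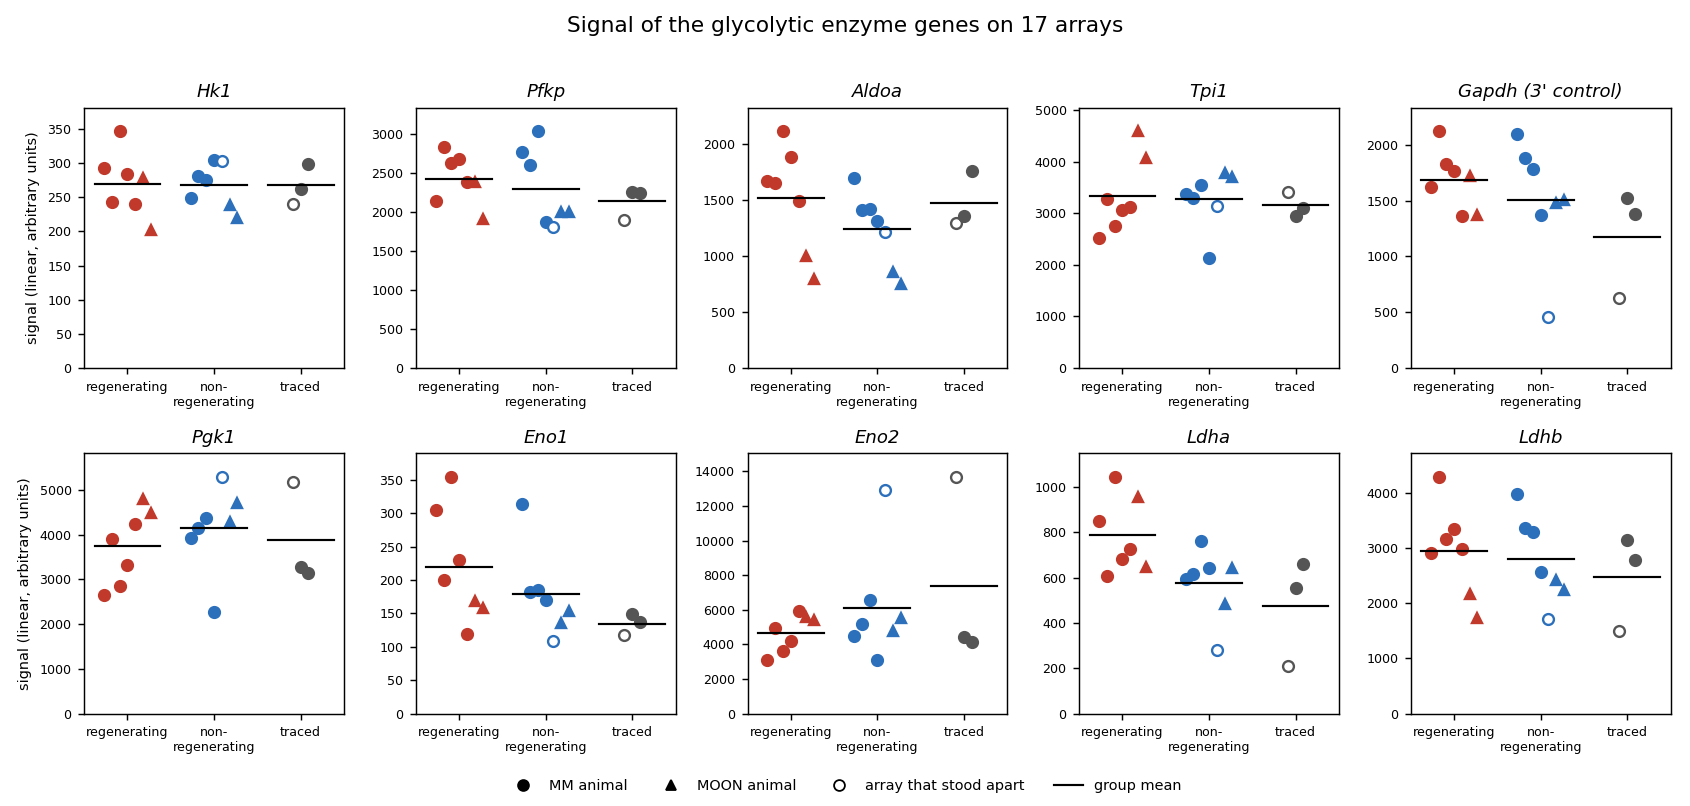
Linear signal (y axis, arbitrary units, from 0) of each gene on every array, with regenerating, non-regenerating and traced samples from left to right; lines are group means, triangles are MOON animals and open symbols are the 2 arrays that stood apart. Ldha and Gapdh are lowest, and Eno2 and Pgk1 highest, on the open symbols, and Aldoa is lowest on the triangles.

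The enzymes that phosphorylate and split the sugar came first in the pathway. Hk1 encodes hexokinase, which traps glucose in the cell as its phosphate. Its signal was 202 to 347 (median 278) in regenerating and 219.8 to 305 (median 275) in non-regenerating samples, and 262, 299.5 and 240.5 in traced MM18, MM19 and MM15. The groups lay over each other, and the log2 fold change of regenerating against non-regenerating neurons was 0.00 with a 95% interval of -0.27 to 0.28. The dim Hk1 probe set read 1.80 to 22.6 in regenerating and 2.80 to 25.7 in non-regenerating samples, and 29.2, 46.2 and 59.0 in the traced ones, sorted by size. Those ranges did not overlap, as was so in that direction for 9.36% of tested probe sets in regenerating and 1.47% in non-regenerating against traced samples. It was too dim for a test, and those shares cover only brighter probe sets. The Hk1 control probe sets, also of low signal, had ranges in both groups that overlapped those of traced samples. Pfkp encodes the platelet type of phosphofructokinase, the enzyme of the main regulated step. Its signal was 1908 to 2829 (median 2385) in regenerating and 1799 to 3027 (median 1993) in non-regenerating samples, and 2255, 2242 and 1899 in traced MM18, MM19 and MM15. The lowest of these values was that of non-regenerating MM17, and the difference between regenerating and non-regenerating neurons was 0.09 (95% interval -0.19 to 0.38).

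Aldoa encodes aldolase A, which cuts the doubly phosphorylated hexose into a pair of trioses. Its signal was 798 to 2114 (median 1649.7) in regenerating and 751 to 1695 (median 1317) in non-regenerating samples, and 1363, 1756 and 1294 in traced MM18, MM19 and MM15. The ranges overlapped, and within animals the regenerating side was higher by 0.09 to 0.57 in all but MM11, where the difference was -0.02. Aldoa had an unadjusted p of 0.039 and an adjusted p of 0.69 in limma, with a 95% interval of 0.01 to 0.52. Tpi1 encodes triosephosphate isomerase, which interconverts the trioses. Its signal was 2519.8 to 4587 (median 3113) in regenerating and 2124 to 3772 (median 3369) in non-regenerating samples, and 2949, 3102 and 3406 in traced MM18, MM19 and MM15. The lowest value was that of non-regenerating MM16, and the difference between regenerating and non-regenerating neurons was 0.02 (95% interval -0.28 to 0.32).

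Gapdh encodes glyceraldehyde-phosphate dehydrogenase, which makes the NADH of the pathway, and is much used as a reference gene. Its 3' control probe set read 1362 to 2121 (median 1724) in regenerating and 456 to 2100.3 (median 1503) in non-regenerating samples, and 1521, 1381 and 623 in traced MM18, MM19 and MM15. All values but those of the 2 arrays that stood apart were at or above 1362. In a fit that kept the control probe sets (18628 tested), the log2 fold change of regenerating against non-regenerating neurons was 0.26 (SE 0.18, adjusted p = 0.74 by limma), higher in 5 of 7 animals. Without the arrays that stood apart it was 0.05 (SE 0.12). The middle and 5' probe sets of Gapdh gave 0.35 (SE 0.18) and -0.04 (SE 0.22) in the same comparison, so the 3 probe sets of this gene differed in sign. They gave 0.23 and 0.06 when those arrays were left out.

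**Figure D2:**
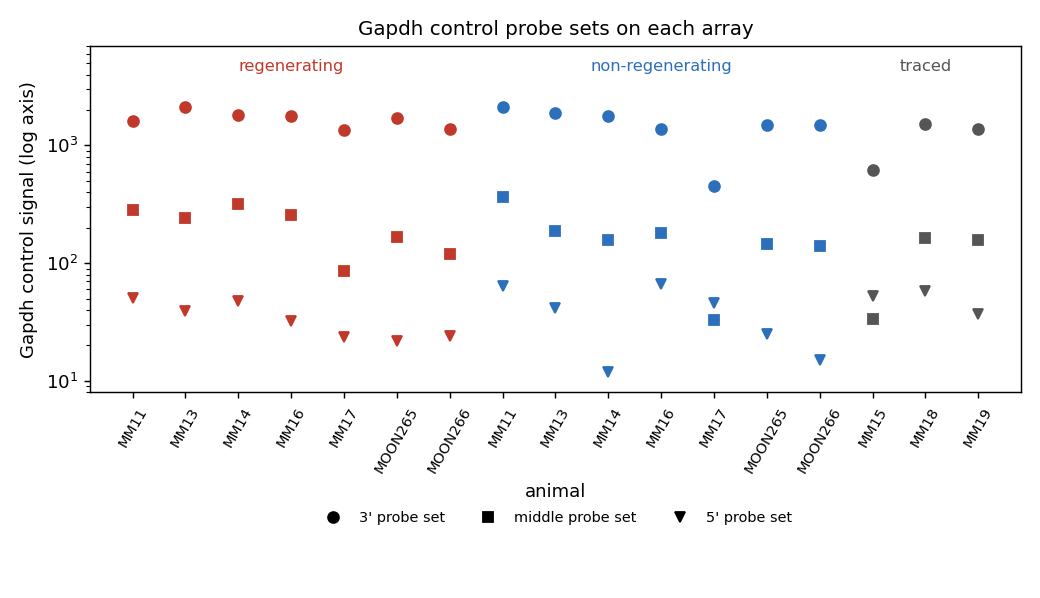
Signals of the 3', middle and 5' control probe sets of Gapdh (y axis, log scale) on each array, by animal, with regenerating, non-regenerating and traced samples from left to right. The 3' signal is 456 on the array of non-regenerating MM17 and 623 on that of traced MM15, and at least 1362 elsewhere.

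The ratio of the 3' to the 5' signal of Gapdh had a median of 54.4 in regenerating and 45.1 in non-regenerating samples (ranges 32.3 to 78.7 and 10.0 to 150.0). In traced samples the ratio was 26.0, 37.4 and 11.7 for MM18, MM19 and MM15. All regenerating samples were above traced MM18 and MM15. The low ratios of non-regenerating MM17 and traced MM15 went with low 3' signals, whereas their 5' signals, 45.5 and 53.1, lay within the 11.9 to 66.1 of the other arrays. The ratio of 150.0, in non-regenerating MM14, rests on a 5' signal of 11.9.

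Pgk1 encodes phosphoglycerate kinase, a step that yields ATP. At its brightest probe set the signal was 2653 to 4798 (median 3905) in regenerating and 2282 to 5292 (median 4293) in non-regenerating samples, and 3289, 3152 and 5175 in traced MM18, MM19 and MM15. The 2 highest values were those of the arrays that stood apart. The log2 fold change of regenerating against non-regenerating neurons was -0.14 (95% interval -0.46 to 0.19) at this probe set and -0.05 (95% interval -0.35 to 0.25) at the other tested one. The name of that other probe set carries an s, by which the maker marks sets that may detect related transcripts.

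The enolases convert phosphoglycerate towards pyruvate. Eno1, alpha enolase, read 119 to 354 (median 199) in regenerating and 109 to 314 (median 170.3) in non-regenerating samples, and 148, 138 and 117.5 in traced MM18, MM19 and MM15. The 4 highest values were, from the top, those of regenerating MM14, non-regenerating MM11, regenerating MM11 and regenerating MM16. Within animals the regenerating side was higher by 0.04 to 0.88 in all but MM11 (-0.04), with the largest difference in MM14, and the adjusted p was 0.71 in limma (95% interval -0.05 to 0.56).

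Eno2, gamma enolase, read 3078 to 5926 (median 4966) in regenerating and 3100.2 to 12946 (median 5179) in non-regenerating samples, and 4409.7, 4118 and 13672 in traced MM18, MM19 and MM15. The values of 12946 and 13672 were those of non-regenerating MM17 and traced MM15, and no other array exceeded 6588. The log2 fold change of regenerating against non-regenerating neurons was -0.28 (adjusted p = 0.73 by limma, 95% interval -0.67 to 0.10). It was -0.14 (SE 0.16) without the arrays that stood apart and 0.03 after quantile normalization, so its sign depended on the scaling.

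Ldha encodes the subunit of lactate dehydrogenase that prevails in skeletal muscle and is known as a target of the hypoxia-inducible factor. It read 608 to 1045 (median 729) in regenerating and 280 to 763 (median 618) in non-regenerating samples, and 555, 659 and 211 in traced MM18, MM19 and MM15. The 2 lowest values were again those of the arrays that stood apart, and 4 of the 7 within-animal differences lay between 0.45 and 1.33 (MM11, MM14, MM17 and MOON265). The remaining 3 were 0.09 in MM16, 0.01 in MOON266 and -0.02 in MM13. The mean signals were 788 ± 166 and 575 ± 154 (SD, n = 7 each), and the log2 fold change of 0.47 had a 95% interval of 0.13 to 0.82, an unadjusted p of 0.0099 and an adjusted p of 0.68 in limma. Without animal MM17 it was 0.33 (SE 0.14, adjusted p = 0.74 by limma).

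Ldhb encodes the subunit that prevails in heart. It read 1729 to 4293 (median 2983) in regenerating and 1721 to 3984 (median 2577) in non-regenerating samples, and 3156, 2795 and 1494 in traced MM18, MM19 and MM15. The groups overlapped and the lowest 2 values were those of the arrays that stood apart. The log2 fold change of regenerating against non-regenerating neurons was 0.07 (95% interval -0.26 to 0.40), with 3 of 7 animals higher, and -0.05 (SE 0.14) without the arrays that stood apart.

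**Figure D3:**
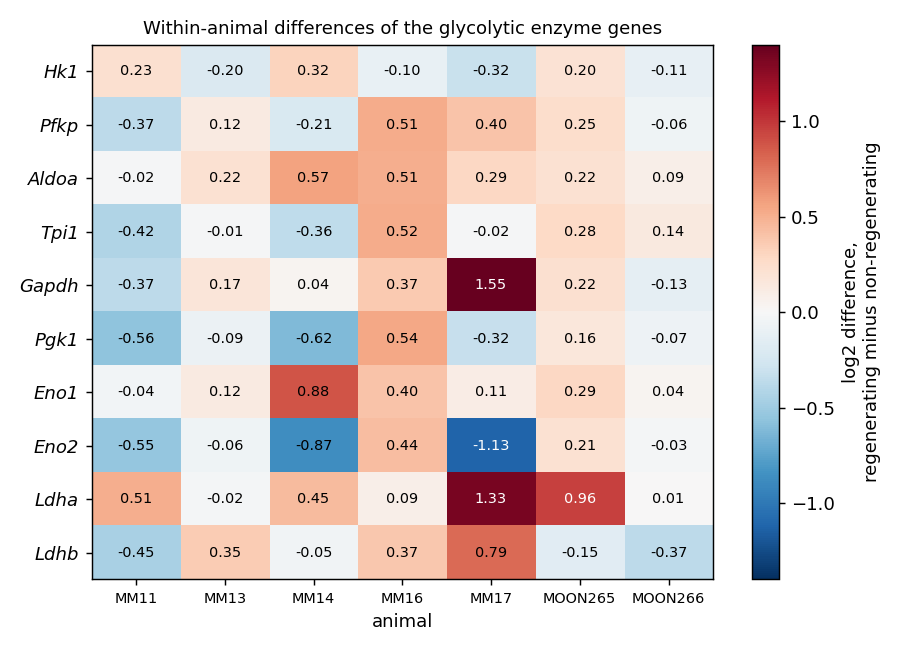
Log2 difference of regenerating minus non-regenerating neurons for each gene (down) and animal (across), with red above 0 and blue below; Gapdh is its 3' control probe set. Ldha, Aldoa and Eno1 are above 0 in 6 of 7 animals, and MM17 holds the extremes for Gapdh, Ldha and Eno2.

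The animals differed in how the genes moved. In MM16 and MOON265, 8 of the 9 tested genes were higher in regenerating neurons, with medians of 0.44 and 0.22, whereas in MM11 only Ldha and Hk1 were higher and the median was -0.37. The medians of all probe sets in these animals were -0.08, -0.06 and 0.07. At its brightest probe set, Pgk1 had the sign of Eno2 in 7 of 7 animals, and Tpi1 shared the sign of each in 6 of 7. The other tested Pgk1 probe set was at 0.43 in MM17, where Eno2 was at -1.13. Signs were compared only among these genes and the mutase gene Pgam1 described below. No share over all pairs of probe sets was taken, so these counts have nothing to be set against. Across the 7 animals, no difference between the MM and MOON animals in these changes passed an interaction test in limma, with a smallest adjusted p of 0.91 among the members (1 of 18625 probe sets passed). The levels themselves went with the name prefix for 2 genes, with no overlap. Aldoa read 751 to 1004 on the 4 MOON arrays and 1219 to 2114 on the 13 MM arrays, a direction without overlap that 12.3% of all probe sets showed. Tpi1 read 3700.1 to 4587 on the MOON arrays and 2124 to 3539.6 on the MM arrays, as did 4.46% of all probe sets in that direction.

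The promoters of Ldha, Eno1 and Eno2, whose balance with their isozymes is described next, are shown because they differ in the core letters of the hypoxia response element. These are the 250 bases before the gene start in RefSeq (build GRCr8), read 5' to 3' along the gene, with every ACGTG or GCGTG on either strand in capitals. Ldha lies on the plus strand at chr1:106507842-106508091, Eno1 (the upstream one of its 2 listed starts) on the plus strand at chr5:166002617-166002866, and Eno2 on the minus strand at chr4:159267221-159267470.
Ldha: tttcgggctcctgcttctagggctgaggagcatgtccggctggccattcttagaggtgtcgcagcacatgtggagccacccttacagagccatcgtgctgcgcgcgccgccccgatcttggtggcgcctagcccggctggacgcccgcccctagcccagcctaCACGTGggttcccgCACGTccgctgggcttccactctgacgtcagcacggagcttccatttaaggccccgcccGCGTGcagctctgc
Eno1: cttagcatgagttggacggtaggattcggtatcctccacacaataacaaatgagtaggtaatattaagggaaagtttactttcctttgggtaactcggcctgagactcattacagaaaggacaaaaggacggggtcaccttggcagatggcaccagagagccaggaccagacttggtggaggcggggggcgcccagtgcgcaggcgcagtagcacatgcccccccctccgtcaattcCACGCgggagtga
Eno2: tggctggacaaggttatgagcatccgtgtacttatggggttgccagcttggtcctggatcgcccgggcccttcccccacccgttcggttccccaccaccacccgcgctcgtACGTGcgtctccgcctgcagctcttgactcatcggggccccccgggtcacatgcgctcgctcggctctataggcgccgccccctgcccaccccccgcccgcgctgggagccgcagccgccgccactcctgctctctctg
The Ldha window held 3 copies of ACGTG, of which 2 overlap as the palindrome CACGTG on opposite strands, and 1 of GCGTG, while the Eno1 window held 1 GCGTG and the Eno2 window 1 ACGTG. RefSeq promoters were matched for 9 of the 10 genes, and Pgk1 was not among them. Of these 13 windows, 9 (69.2%) held either motif, beside 36.7% of all 33469 windows of that length. A match is a description of letters and shows no binding.

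The balance of isozymes was taken as the log2 difference of 2 genes within an array. Eno1 minus Eno2 averaged -4.36 ± 0.85 in regenerating and -4.90 ± 0.94 in non-regenerating samples (SD, n = 7 each), and regenerating neurons were higher by 0.54 ± 0.69 (SD of the 7 differences). It was higher in 6 of 7 animals, with an exact two-sided sign-flip p of 0.031 and 0.19 after adjustment over 6 tests. Leaving out the arrays that stood apart gave 0.42, and leaving out animal MM14 gave 0.34. Ldha minus Ldhb averaged -1.85 ± 0.55 in regenerating and -2.26 ± 0.33 in non-regenerating samples (SD, n = 7 each), higher by 0.40 ± 0.57 in regenerating neurons and in 5 of 7 animals (exact sign-flip p = 0.11, adjusted 0.24). With 7 pairs the smallest p is 0.0156.

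In traced samples Eno1 minus Eno2 was -4.75, -4.75 and -6.68 for MM18, MM19 and MM15, and Ldha minus Ldhb was -2.47, -2.06 and -2.74. The regenerating mean exceeded the traced one by 1.03 for the enolases (exact permutation p = 0.15, adjusted 0.24) and by 0.57 for lactate dehydrogenase (exact permutation p = 0.16, adjusted 0.24). Without the arrays that stood apart the differences were 0.39 and 0.41. The non-regenerating mean exceeded the traced one by 0.49 (exact permutation p = 0.57) and 0.17 (exact permutation p = 0.50), and adjustment over the 6 tests gave 0.57 for both. Without traced MM15 the first of these differences turned to -0.15 and the other was 0.01, and without both arrays that stood apart they were 0.15 and 0.06.

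**Figure D4:**
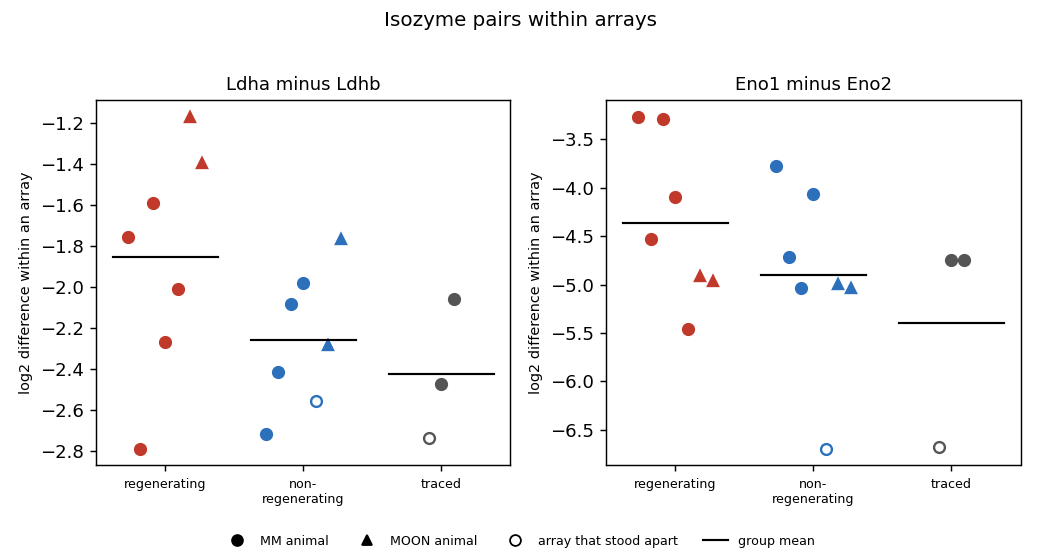
Log2 difference within an array (y axis) of Ldha minus Ldhb and of Eno1 minus Eno2, with regenerating, non-regenerating and traced samples from left to right; lines are group means, triangles are MOON animals and open symbols the 2 arrays that stood apart. Those 2 arrays are lowest for Eno1 minus Eno2, at -6.70 and -6.68, and the groups overlap in both panels.

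Non-regenerating neurons were set against traced neurons of other animals to find genes related to axotomy. None of the 10 member probe sets passed (0.043% of all probe sets did), and the smallest adjusted p among the 9 genes was 0.66 in limma. An unadjusted p under 0.05 was reached by 0 of the members and 10.3% of all probe sets. The median over the 9 genes was 0.08, beside -0.12 for all probe sets, with 6 genes above 0 and 3 below (38.8% of all probe sets were above 0). Ldha was at 0.36 (SE 0.35), Eno1 at 0.32 (SE 0.29) and Aldoa at -0.28 (SE 0.26). The 95% intervals were -0.39 to 1.11 for Ldha, -0.30 to 0.93 for Eno1 and -0.84 to 0.28 for Aldoa, so changes of those sizes were not detectable with 7 arrays against 3. Without traced MM15 the value of Ldha was -0.13 (SE 0.32), and centring each array on its median put Aldoa at 0.08. All traced arrays were MM ones, and on MOON arrays Aldoa read lower and Tpi1 higher than on MM arrays, without overlap. Name prefix and group are thus mixed in the values of these genes against traced samples. Hk1 was at 0.00 (95% interval -0.45 to 0.44) and Tpi1 at 0.04 (-0.44 to 0.51). Ldhb, Pgk1, Pfkp and Eno2 were at 0.19, 0.10, 0.08 and -0.18, and Gapdh at 0.34 (SE 0.41). Without the arrays that stood apart, Ldha was at 0.03, Ldhb at -0.03, Pgk1 at 0.26, Pfkp at 0.05, Eno2 at 0.18 and Gapdh at 0.20, so that Ldhb and Eno2 turned sign. These values are of the brightest Pgk1 and the 3' Gapdh probe set. With all arrays, the other tested Pgk1 probe set was at -0.17 (SE 0.20). The middle and 5' probe sets of Gapdh were at 0.52 (SE 0.53) and -0.36 (SE 0.37). Without the arrays that stood apart the middle one was at 0.20.

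Regenerating against traced neurons shares its regenerating arrays with the comparison within animals and its traced arrays with the one just given. None of the 10 member probe sets passed, where 0.215% of all probe sets did. Ldha averaged 788 ± 166 in regenerating samples (SD, n = 7) and 475 ± 235 in traced samples (SD, n = 3), a difference of 0.83 on the log2 scale (95% interval 0.17 to 1.50, SE 0.31, adjusted p = 0.13 by limma). Without traced MM15 it was 0.35 (SE 0.25, adjusted p = 0.61 by limma), and with the Gapdh 3' to 5' ratio in the fit 0.24 (adjusted p = 0.91 by limma). The 3' probe set of Gapdh was at 0.60 (SE 0.27, adjusted p = 0.19 by limma) and at 0.20 (SE 0.21) without the arrays that stood apart. Its middle probe set was at 0.86 (SE 0.45), and at 0.25 (SE 0.42) without those arrays. The 5' one was at -0.40 (SE 0.26), so the probe sets of Gapdh differed in sign here too. Eno1 was at 0.57 (SE 0.31) and Eno2 at -0.46 (SE 0.34), and Eno2 turned to 0.10 (SE 0.25) without traced MM15.

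The other genes lay nearer to 0 in that comparison. Ldhb was at 0.26 (95% interval -0.36 to 0.89), Pfkp at 0.17 (-0.23 to 0.58), Tpi1 at 0.06 (-0.40 to 0.51), Pgk1 at -0.04 (-0.56 to 0.48), Aldoa at -0.01 (-0.62 to 0.60) and Hk1 at 0.00 (-0.47 to 0.47). For Aldoa and Tpi1, name prefix and group are mixed here too, as no traced array was a MOON one. Aldoa was at 0.13 without regenerating MOON266, and Tpi1 at -0.02 without regenerating MOON265. Without the arrays that stood apart, Ldhb was at -0.06 and Pgk1 at 0.19. The other tested probe set of Pgk1 was at -0.22 (-0.66 to 0.21) with all arrays. The median over the 9 genes was 0.06, beside -0.12 for all probe sets, and 5 genes were above 0, as were 40.8% of all probe sets. An unadjusted p under 0.05 was reached by Ldha and by 23.6% of all probe sets. Glial marker lists did not all move one way against traced samples. All 6 tested microglia and macrophage markers of 10 listed were higher in both, with a summed signal of 3063 to 6161 in regenerating, 3179 to 5567 in non-regenerating and 1684 to 1947 in traced samples, and Itgam, C1qb, Tyrobp and Cx3cr1 were too dim to be tested. Of the 9 astrocyte markers, 7 were higher in regenerating and 8 in non-regenerating than in traced samples, with the overlapping sums given above. Of 7 tested oligodendrocyte markers, 2 were higher in regenerating and 3 in non-regenerating than in traced samples (medians -0.19 and -0.04). Of 13 neuron markers, 3 were higher in regenerating and 4 in non-regenerating than in traced samples (medians -0.19 and -0.03). Syn1 (-2.07) and Syt1 (-0.96) were lower in regenerating than in traced samples without overlap, as were 9.36% of all probe sets. Of 8 tested endothelium and blood markers, 3 were higher in regenerating and 2 in non-regenerating than in traced samples. No neuron, endothelium or blood marker passed. Gfap, an astrocyte filament gene, rose in regenerating against traced samples (log2 fold change 1.33, adjusted p = 0.026 by limma), as did the microglial genes Laptm5 (1.58) and C1qa (1.52). Without traced MM15, 1 of all probe sets passed in this comparison. The part of these marker genes in the values of the glycolytic genes against traced samples was not tested.

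**Figure D5:**
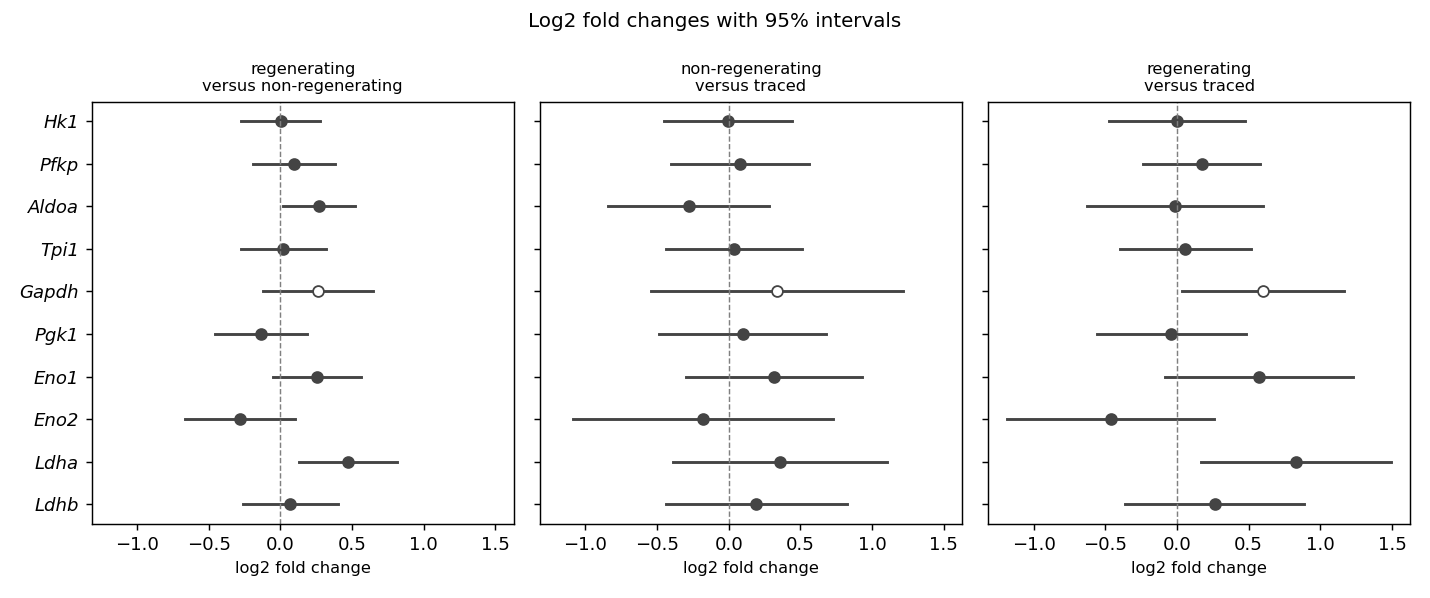
Log2 fold change (x axis) with its 95% interval for each gene in the 3 comparisons; Gapdh (open symbol) is the 3' control probe set. The intervals of Ldha exclude 0 in the panels of regenerating against non-regenerating and against traced neurons, those of Aldoa in the left panel and of Gapdh in the right one, all before adjustment for the number of probe sets.

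The arrays of non-regenerating MM17 and traced MM15 bore on most of the 10 genes. Both lay outside the range of the other 15 arrays for Eno2 and Pgk1 (above), and for Eno1, Ldha, Ldhb and Gapdh (below). For Ldha, they read 280 and 211, against 485 to 1045 on the other arrays. At the other tested probe set of Pgk1 they read 2186 and 2517, within the range of the other arrays. Over all probe sets, 19.4% were above on both arrays and 11.6% below. Hk1, Aldoa and Tpi1 were within the range of the others on both arrays, and Pfkp was below it on that of MM17 alone.

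Of 18 other glycolytic enzyme genes listed, 7 were tested and 0 rose or fell in any of the 3 comparisons. Pgam1, phosphoglycerate mutase, averaged 3770.1 ± 835 in regenerating and 5063 ± 2111 in non-regenerating samples (SD, n = 7 each), with a log2 fold change of -0.37 (SE 0.18), and it shared the sign of Tpi1 in 6 of 7 animals and those of Pgk1 and Eno2 in 5 of 7. Gpi, glucose phosphate isomerase, was at 0.34 (SE 0.17) and higher in 6 of 7 animals, and Aldoc, the aldolase of brain, at 0.26 (SE 0.14) and higher in 5 of 7. Aldoc was at 0.15 (SE 0.12) without the arrays that stood apart. In regenerating against traced samples Pgam1 was at -0.49 (SE 0.29), and at -0.10 (SE 0.25) without those arrays. Against traced samples, the erythrocyte mutase gene Bpgm was at 0.38 (SE 0.20) in regenerating and 0.39 (SE 0.21) in non-regenerating samples. Gapdhs, the sperm form of Gapdh, was at -0.60 (SE 0.29) and -0.58 (SE 0.33), and Ldhd, of D-lactate breakdown, at -0.38 (SE 0.33) in non-regenerating samples. Both had low signals, down to 15.3 for Gapdhs in regenerating and 14.6 for Ldhd in non-regenerating samples. These lie below the 16 added before taking logs.

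Among regulators and branch points of glycolysis, 23 of 29 genes were tested and 0 passed. Pfkfb4, which sets the level of the activator of phosphofructokinase, read 26.9 to 116 (median 51.7) in regenerating and 6.90 to 63.4 (median 37.3) in non-regenerating samples, at a log2 fold change of 0.64 (adjusted p = 0.68 by limma, SE 0.21), and 6 of 7 animals were higher. It was 0.49 (SE 0.19) without the arrays that stood apart. The pyruvate dehydrogenase phosphatase gene Pdp2 was at 0.51 (SE 0.21), and the glycogen synthase gene Gys1 at 0.49 (SE 0.24), in the same comparison. Pdp2 was at 0.31 (SE 0.18) without the arrays that stood apart. Pdk4, whose kinase shuts pyruvate dehydrogenase, averaged 294 ± 65.1 in non-regenerating (SD, n = 7) and 160.0 ± 32.6 in traced samples (SD, n = 3). These ranges did not overlap (193 to 399 and 125 to 190.0), as was so in that direction for 1.1% of all probe sets, and the adjusted p was 0.47 in limma for a log2 fold change of 0.81 (SE 0.25). Regenerating samples were at 0.83 (SE 0.35, adjusted p = 0.17 by limma) against traced ones for Pdk4, with an overlapping range of 146 to 482. In regenerating against traced samples, Pdk2 was at 0.68 (SE 0.25) and Pck1, of gluconeogenesis, at -1.12 (SE 0.35, adjusted p = 0.085 by limma). Pdk2 was at 0.50 (SE 0.24) in non-regenerating against traced samples, and at 0.33 (SE 0.26) without the arrays that stood apart. Gys1 read 12.4 to 220.0 (median 92.8) in regenerating and 13.5 to 132 (median 39.8) in non-regenerating samples, and 10.2, 17.2 and 19.9 in the traced ones, sorted by size. The traced readings lie close to the 16 added before taking logs, so no fold is given for Gys1 against them, and the ranges overlapped. Pfkfb4 and Pdp2 also read below those 16 on some arrays, down to 6.9 and 7.1 in non-regenerating samples, which limits their folds.

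Of 12 transporter genes for glucose, lactate and pyruvate, 9 were tested and 0 passed. Slc16a3, the lactate exporter MCT4, known mainly from glia and muscle, averaged 43.8 ± 13.3 in regenerating (SD, n = 7) and 116 ± 28.9 in traced samples (SD, n = 3). The ranges of 21.1 to 56.7 and 91.7 to 148 did not overlap, as was so in that direction for 9.36% of all probe sets. The log2 fold change was -1.16 (SE 0.27, adjusted p = 0.068 by limma), and -0.99 (SE 0.30, adjusted p = 0.39 by limma) without the arrays that stood apart. In non-regenerating against traced samples Slc16a3 was at -0.82 (SE 0.35). The insulin-regulated glucose transporter gene Slc2a4 was at -0.95 (SE 0.34) in regenerating and -0.86 (SE 0.40) in non-regenerating against traced samples. Slc2a4 read down to 12.9 in regenerating and 9 in non-regenerating samples, below the 16 added before taking logs, which limits its folds. Between regenerating and non-regenerating neurons the monocarboxylate transporter genes Slc16a7, Slc16a3 and Slc16a1 were at -0.34, -0.34 and 0.10, and Slc16a1 turned to -0.07 (SE 0.13) without the arrays that stood apart. Slc16a7 was at -0.50 (SE 0.34) in regenerating against traced samples, and the mitochondrial pyruvate carrier gene Mpc1 at 0.37 (SE 0.32) in non-regenerating against traced samples. Mpc1 was at 0.16 (SE 0.27) there without the arrays that stood apart. In regenerating against traced samples Mpc1 was at 0.36 (SE 0.30), where traced MM18, MM19 and MM15 read 404, 376 and 185. No value without MM15 is given for it there.

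Of 15 other hypoxia response genes, 11 were tested and 0 passed. Egln3, an oxygen-dependent prolyl hydroxylase that marks the hypoxia-inducible factor for breakdown, read 196 to 371 (median 255) in regenerating and 282 to 486 (median 363) in non-regenerating samples. Regenerating neurons had less of it in 7 of 7 animals, as were 0.966% of all probe sets, at a log2 fold change of -0.42 (adjusted p = 0.57 by limma, SE 0.12). The factor gene Hif1a was at -0.28 (SE 0.20), and at -0.48 (SE 0.16) without the arrays that stood apart, and the collagen hydroxylase gene P4ha1 at 0.22 (SE 0.17). Against traced samples, the peptide gene Adm was at -0.86 (SE 0.31) in regenerating and -0.79 (SE 0.40) in non-regenerating samples, and the heme oxygenase gene Hmox1 at -0.87 (SE 0.35) and -0.84 (SE 0.39). Without the arrays that stood apart, regenerating samples were at -0.56 (SE 0.32) for Adm and -0.53 (SE 0.37) for Hmox1. Adm read 14 in non-regenerating MOON266 and Hmox1 13.9 in regenerating MOON266. Both lie below the 16 added before taking logs, which limits their folds. P4ha1 was at 0.49 (SE 0.26) in regenerating, and Vegfa at -0.54 (SE 0.38) in non-regenerating, against traced samples. Vegfa was at -0.47 (SE 0.30) in regenerating against traced samples.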

How the data were processed

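Linear signal intensities of 17 arrays were made with GCOS, the array maker's software, and deposited by the authors, per the submitters' processing notes (version not given in the sources used here). Each array's mean, trimmed of 2% at either end, lay between 200 and 200.1. The arrays thus came scaled and were used as deposited. An offset of 16 was added before log2. Leaving out 57 control probe sets and the 12417 under the 40th percentile of mean brightness left 18625. Array number limits the precision of every value. Replicates are separate animals by their names.

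Comparisons were tested in R 4.3.3 with limma 3.58.1, by lmFit and trended eBayes, and Benjamini-Hochberg adjustment over all tested probe sets. The animal was a block in the comparison within animals: the names pair the samples, and deviations from group means correlated within an animal with r = 0.34 to 0.71. Isozyme differences used exact sign-flip or permutation tests. A gene was read at its brightest tested probe set. Of each other list, up to 3 genes with the smallest p per comparison were named. The fits were tested on simulated data with independent errors and added shifts larger than any log2 fold change reported for the members. That check does not cover arrays that stand apart or changes as small as those of the members. Alternatives covered scaling, offset, filter, array weights, trend, block, 3' bias, name prefix and each array left out. Values of Gapdh, and isozyme values without arrays or among MM animals, were added after seeing the data. Members and lists were chosen with earlier results of these data known. Figures were drawn with Python 3.11.15 and matplotlib 3.10.9.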

Additional observations from a re-analysis of the deposited data

Results flagged for a closer look

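In groups of 7 arrays, 4 of the 24 sets of values checked held 1 sample far from its neighbours, by a rule that chance meets in about 1 of 20 groups. Non-regenerating MM16 was low for 2 genes: Tpi1 read 2124 there, against 3151 on the next array, and Pgk1 read 2282, against 3922. In MM16 these made the largest positive within-animal differences of both genes, 0.52 and 0.54. Non-regenerating MM17 read 456 for Gapdh, against 1368 on the next array, and its Eno1 minus Eno2 difference was -6.70, against -5.03 on the next. The causes were not tested.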

How the results depend on the processing

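No member probe set passed the adjusted threshold in any of 22 other settings for regenerating against non-regenerating, 25 for non-regenerating against traced and 25 for regenerating against traced neurons. Over all probe sets these settings gave 0 to 3, 2 to 2440 and 1 to 3131 calls, beside 3, 8 and 40 as reported, and array weights gave the 2440 and 3131. Of the members' values that were at least 1 standard error from 0, 4 turned sign. Eno2 in regenerating against non-regenerating neurons was 0.029 after quantile normalization. That setting also put the member median of this comparison at 0.21, beside 0.07 as reported and 0.0008 for all probe sets in that setting. Pgk1, reported at -0.14 and within 1 standard error of 0, was at 0.059 there. In non-regenerating against traced samples, Aldoa was 0.082 with each array centred on its median, and Ldha was -0.13 to 0.66 with each array left out in turn, lowest without traced MM15. In regenerating against traced samples, Eno2 was 0.10 without the 2 arrays that stood apart and -0.77 to 0.10 with each left out, highest without traced MM15. Centring put the member median at 0.44 in non-regenerating and 0.45 in regenerating against traced samples, beside medians of 0.24 and 0.26 for all probe sets. The member median in regenerating against traced samples was 0.24 with MM animals alone, as it was when a term for the name prefix was added (0.24). With each array left out, Eno1 minus Eno2 in non-regenerating against traced samples was -0.15 to 0.81. The causes were not tested. Without the replicate block, 0 member probe sets passed, the member median was 0.07, and Ldha kept 0.47 (adjusted p = 1.0 by limma, beside 0.49 to 1.0 over its other settings). Ldha was above 0 in all 22 settings of the comparison within animals (0.33 to 0.56).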

Other observations

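Outside the lists, the genes whose log2 signal over the 17 arrays was most like the mean of the 9 tested glycolytic genes were Iscu, of iron-sulfur cluster assembly (Pearson r = 0.88), Ahnak2 (0.86), Iqsec1 (0.86), the mitochondrial carrier gene Slc25a14 (0.85) and Cybc1 (0.85), picked from 13089 candidates. The arrays share animals and scaling, and the values are a description.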
